A study of Homo sapiens with 4 samples.

Results

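DNA crosslink repair and damage signalling genes were followed in EJ and T24T, 2 cell lines from human bladder cancer. The set was defined by a fixed list of 43 gene symbols, and each symbol was looked up in the deposited table of read counts. All 43 were found among the 56303 genes of the table, and all 43 passed the filter on low counts that left 17689 genes for testing. They comprise 11 nucleotide excision repair genes, 10 Fanconi genes, 9 homologous recombination genes, 2 mismatch repair genes, 5 translesion synthesis genes, 4 checkpoint genes and 2 genes of single-strand break repair. The last pair, PARP1 and XRCC1, belongs to none of the other roles and was kept apart.

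In the study, a circular RNA, hsa_circ_0008399, was introduced by transfection (circ) and cells that received a vector served as the controls (vector), to screen for genes that act downstream of the circle. There were 4 groups of 1 library each, namely EJ vector, EJ circ, T24T vector and T24T circ. No DNA-damaging agent is named for any group, and the labels do not say whether cells were transfected stably or as clones. Both lines are catalogued as descendants of the same bladder tumour line, T24, so they stand for related rather than independent tumours. Total counts ran from 14703455 to 18057768 per library. The epithelial keratins KRT7, KRT8 and KRT18 were present (KRT18 between 92.5 and 188 RPKM, which are counts scaled by gene length and library total). KRT19 stayed under 1 RPKM in every library and EPCAM in the EJ libraries, and CDH1, encoding the epithelial cadherin, stayed at or under 0.03 RPKM. Of the urothelial markers, 5 of 8 luminal and 3 of 5 basal ones were under 1 RPKM in all 4 libraries. The luminal markers UPK1A and FOXA1 were under 1 RPKM in some libraries only. All 4 mesenchymal markers, VIM among them, were above 1 RPKM in every library. All 5 leukocyte, 3 endothelial and 4 fibroblast or muscle markers were under 1 RPKM in every library.

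DNA crosslinks are lesions in which an agent such as cisplatin, a mainstay of bladder cancer chemotherapy, ties bases together within a strand or across strands. Nucleotide excision repair cuts out lesions within a strand: XPC and the DDB proteins find damage, the helicases ERCC2 and ERCC3 open the helix, XPA checks the site, and the nucleases ERCC5 and ERCC4-ERCC1 cut. A crosslink across strands halts replication, and the Fanconi core complex then attaches ubiquitin to FANCD2 and FANCI. Nucleases gathered by SLX4 unhook the lesion, translesion polymerases copy past it, and homologous recombination restores the broken strand, while the kinases ATR, ATM, CHEK1 and CHEK2 hold the cell cycle.

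The members covered a wide range of levels. PARP1, which senses strand breaks, had the highest mean level at 64.5 RPKM, followed by the nuclease subunit gene ERCC1 at 42.3 RPKM and XPA at 20.2 RPKM. The lowest were FANCM, which anchors the Fanconi core complex at DNA, at 0.48 RPKM, the recombination mediator gene BRCA2 at 0.61 RPKM and the nuclease gene ERCC4 at 0.95 RPKM. ERCC1 and ERCC4 encode the subunits of a single nuclease, and their RPKM values differed 37.6- to 49.3-fold in the 4 libraries. Each shares exon bases with a gene on the opposite strand (28.6% for ERCC1, 25.7% for ERCC4), so both levels are uncertain. Levels of this kind rest on the length of all annotated exons of a gene, which spreads the reads of long gene models thin. Per gene and library, members had between 48 counts (FANCF in EJ circ) and 8649 counts (PARP1 in T24T vector).

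**Figure D1:**
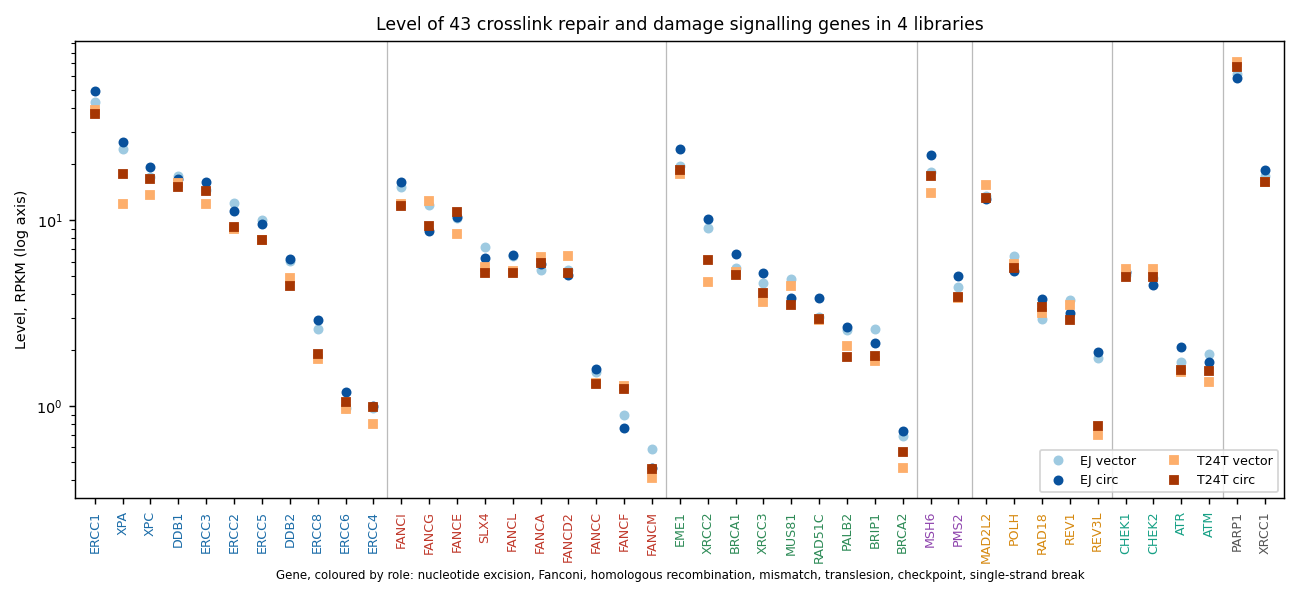
Level of each of the 43 genes in RPKM on a log axis, ordered by role and then by mean level, with 1 point for each library (circles EJ, squares T24T; pale vector, dark circ). PARP1 lies highest and FANCM lowest, and the points of a gene lie close together apart from genes such as REV3L, XRCC2 and XPA, whose T24T points lie under their EJ points.

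The circ libraries were compared with the vector libraries across the lines, to see which repair genes followed the transfection. FANCG fell, and MSH6 and XPA rose. The other 40 members did not pass the test, edgeR's quasi-likelihood test blocked on the cell line, with adjustment over all 17689 genes at a threshold of 0.05. Of all genes tested 12.7% were called in this comparison, 7.13% as higher and 5.56% as lower, so 3 called members of 43, or 6.98%, is a share under the background. The sole repetition of the transfection is over the 2 lines. The fit leaves 1 residual degree of freedom against a prior of 30.5, so each p-value rests mostly on a spread pooled over genes. That spread comes from these libraries alone and may be technical. No member reached a 2-fold difference between circ and vector in either line, against 3.83% of all genes in EJ and 3.91% in T24T. Summed over the libraries, members had at least 265 counts (median 2126) and all genes tested at least 20 (median 799). The shares thus compare genes of unlike counts. DESeq2 called 0 of the 43 members, against 1.89% of all genes. At an unadjusted p under 0.05 DESeq2 had 2 of the 43 members and 1463 of all 17689 genes. By the same rule edgeR had 10 members (23.3%), against 25.8% of all genes.

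The median log2 fold change of the 43 genes was 0.04, and that of all genes tested was 0.0018. Within the lines the members' median log2 ratio of circ over vector was 0.06 in EJ and 0.03 in T24T. It was above 0 in both lines for 19 members (44.2%; 33.4% of all genes) and below 0 in both for 11 (25.6%; 32.3% of all genes), and it had opposite signs in the remaining 13 (33.8% of all genes). In simulated counts on 17689 genes, 200 genes of higher count were changed between circ and vector at each fold, with no difference between the lines. The fit recovered 5% of genes changed by 25%, 82% of those changed 1.5-fold and 97.5% of those changed 2-fold. False calls numbered 0, 9 and 9. In the data 2246 genes were called for circ against vector, so these shares may not hold there. The spread of the simulated counts was the one estimated from these same libraries. The simulation therefore cannot show whether that spread is too small.

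**Figure D2:**
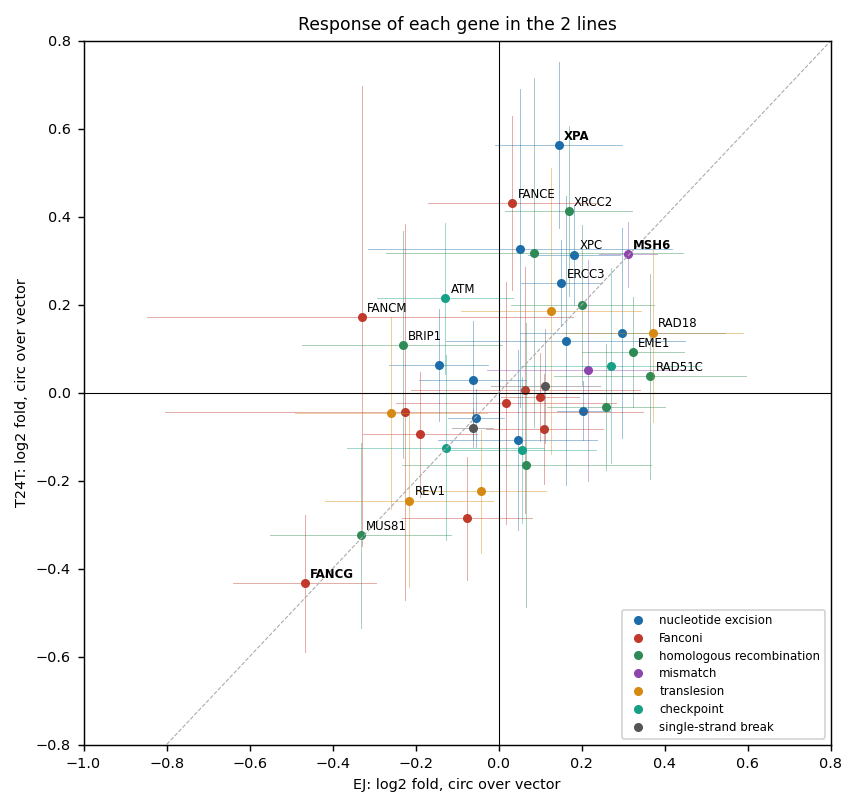
Log2 fold of circ over vector in EJ (horizontal axis) and in T24T (vertical axis) for each of the 43 genes, coloured by role, with exact 95% binomial intervals that cover counting error only. Names in bold passed the test, and FANCG lies lowest near the dashed line of equal response, with MUS81 next to it, while MSH6 lies on that line and XPA lies above it.

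FANCG encodes a subunit of the Fanconi core complex that binds FANCA. Its counts, scaled by the TMM method to counts per 1000000 (CPM), were 42.8 with vector and 31.0 with circ in EJ cells, and 46.8 with vector and 34.7 with circ in T24T cells. Both circ libraries lay under both vector libraries, which held for 4 of 43 members (9.3%; 13.5% of all genes), the others being MUS81, POLH and REV1. The gene fell by 0.45 ± 0.10 on the log2 scale (± standard error, over n = 2 lines, edgeR adjusted p = 0.00215). The fold of circ over vector was 0.723 in EJ (exact 95% binomial interval 0.642 to 0.815, counting error only) and 0.741 in T24T (0.665 to 0.825). FANCA, its binding partner, had a log2 fold change of 0.01 ± 0.09 (edgeR adjusted p = 0.962). Without the cell-line block, in DESeq2 and in limma on log2 RPKM the call was lost, with adjusted p-values over all alternatives between 0.000219 and 1. FANCG lies on chromosome 9 from 35073835 to 35080016 on the minus strand (hg38), and no exon base of it is shared with another gene of the table. FANCA shares 23.6% of its exon bases with ZNF276 on the opposite strand (0.03 ± 0.10, edgeR adjusted p = 0.898).

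MSH6 encodes a subunit of a complex that recognises base mismatches. EJ cells had 195 CPM with vector and 241 CPM with circ, and T24T cells had 157 CPM with vector and 196 CPM with circ. Both circ libraries lay above both vector libraries, as for 9 members (20.9%; 15.2% of all genes), but T24T circ and EJ vector were close, and scaled by library total alone T24T circ was the lower (17.2 against 18.1 RPKM). The rise was 0.31 ± 0.08 (log2, n = 2 lines, edgeR adjusted p = 0.0106), and the folds of the lines were nearly equal at 1.24 in EJ (interval 1.18 to 1.30) and 1.24 in T24T (1.18 to 1.31). DESeq2 gave 0.30 with an adjusted p of 0.149, and adjusted p-values over all alternatives ran from 0.00453 to 1. The MSH6 row spans chromosome 2 from 47695530 to 47810101 on the plus strand and shares 16.2% of its exon bases with FBXO11 on the opposite strand. FBXO11 had a log2 fold change of -0.05 ± 0.09 (edgeR adjusted p = 0.790). PMS2, the other mismatch repair member, had a log2 fold change of 0.13 ± 0.13 (edgeR adjusted p = 0.554). Its reads are uncertain because near-identical copies exist, such as PMS2P2 with between 855 and 1363 counts against 253 to 292 for PMS2.

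XPA encodes the scaffold that verifies damage in nucleotide excision repair. EJ cells had 43.1 CPM with vector and 47.6 CPM with circ, and T24T cells had 22.9 CPM with vector and 33.8 CPM with circ. The circ and vector libraries overlapped, because both EJ libraries lay above both T24T libraries. XPA rose by 0.34 ± 0.11 (log2, n = 2 lines, edgeR adjusted p = 0.0321). That rise rests mostly on T24T, where the fold was 1.48 (interval 1.30 to 1.68), whereas the interval in EJ, 0.994 to 1.23 around 1.11, held 1. The difference between the lines was not tested, as a term for it leaves no residual degree of freedom. DESeq2 gave an adjusted p of 0.403, and the alternatives ran from 0.0154 to 1. XPA lies on chromosome 9 from 97674909 to 97697357 on the minus strand and shares no exon base with another gene of the table.

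The stretches around the start sites of these 3 genes are shown because they are the members that passed the test. Each window holds 250 bases before and 50 after a RefSeq start site (build GRCh38.p14) and is written 5′ to 3′ along the gene. Capitals mark the letters TTTCCCGC, an E2F-type motif, and CCAAT, each searched on both strands. The E2F-type motif TTTGGCGC and the CHR-type motif TTTGAA were searched in the same way. The windows are chr9:35079893-35080192 on the minus strand for FANCG, chr2:47782895-47783194 on the plus strand for MSH6 and chr9:97697291-97697590 on the minus strand for XPA.

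FANCG: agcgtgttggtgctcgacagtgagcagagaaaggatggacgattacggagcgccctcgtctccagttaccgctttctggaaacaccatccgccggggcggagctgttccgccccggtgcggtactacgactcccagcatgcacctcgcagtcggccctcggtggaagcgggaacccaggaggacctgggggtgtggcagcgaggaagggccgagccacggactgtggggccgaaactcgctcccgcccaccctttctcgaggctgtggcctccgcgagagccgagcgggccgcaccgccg
MSH6: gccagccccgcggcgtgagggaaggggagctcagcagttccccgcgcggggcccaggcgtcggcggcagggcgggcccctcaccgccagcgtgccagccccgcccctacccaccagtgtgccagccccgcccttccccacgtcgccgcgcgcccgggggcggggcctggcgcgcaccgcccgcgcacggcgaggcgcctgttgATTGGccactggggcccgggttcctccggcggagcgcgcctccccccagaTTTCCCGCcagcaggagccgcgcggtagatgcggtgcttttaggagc
XPA: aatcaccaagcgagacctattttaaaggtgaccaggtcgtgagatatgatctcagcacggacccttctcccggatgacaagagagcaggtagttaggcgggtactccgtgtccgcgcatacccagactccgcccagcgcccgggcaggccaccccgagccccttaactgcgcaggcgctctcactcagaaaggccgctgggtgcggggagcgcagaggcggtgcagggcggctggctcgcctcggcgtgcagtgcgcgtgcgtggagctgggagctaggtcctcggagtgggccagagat

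Of the 3 windows only that of MSH6 held a motif, TTTCCCGC starting 4 bases into the transcript and CCAAT, on the opposite strand, starting 47 bases upstream. TTTCCCGC was present in 6 of the 58 windows of the 42 members with an entry (10.3%; 1.63% of 35116 windows in the table), those of FANCC, FANCD2, MSH6, REV3L, XPC and XRCC2. TTTGGCGC was present in 0 of 58 (0.652% of all windows). CCAAT was in 39.7% of the members' windows and 34.6% of all windows, and TTTGAA in 12.1% and 15.2%. The median G and C content was 64.0% in the members' windows and 58.7% in all windows, and some genes have several windows. The part of base content in these shares was not tested. A match describes letters in a window and does not show that a factor binds there.

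Nucleotide excision repair genes beside XPA did not pass the test, so 1 of 11 was called, against 12.7% of all genes. XPC, which recognises distorting lesions, had 80.2 CPM with vector and 91.0 CPM with circ in EJ cells, and 66.8 and 83.0 CPM in T24T cells. Both circ libraries lay above both vector libraries, with a log2 fold change of 0.25 ± 0.09 (edgeR adjusted p = 0.0572). XPC shares 23.8% of its exon bases with AC093495.4 on the opposite strand, whose log2 fold change was 0.05 ± 0.13 (edgeR adjusted p = 0.858). On that strand it also shares 8.61% with RP11-434D12.1 (-0.35 ± 0.17, edgeR adjusted p = 0.202). A further 6.63% is shared there with LSM3, which had between 2459 and 3518 counts (-0.02 ± 0.08, edgeR adjusted p = 0.901). The helicase gene ERCC3 had 105 and 116 CPM in EJ vector and circ and 92.3 and 110 CPM in T24T vector and circ, a log2 fold change of 0.20 ± 0.08 (edgeR adjusted p = 0.117). Its partner in TFIIH, the helicase gene ERCC2, had -0.04 ± 0.09 with opposite signs in the lines.

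The transcription-coupled repair gene ERCC6 (0.21 ± 0.12) and the endonuclease gene ERCC4 (0.19 ± 0.16) had both circ libraries above both vector libraries, from counts of at most 317 and 152. ERCC8 (0.14 ± 0.14), which works with ERCC6 at stalled polymerases, and ERCC1 (0.08 ± 0.09) overlapped between circ and vector. The log2 ratio for ERCC1 was 0.20 in EJ cells but -0.04 in T24T cells. It shares 28.6% of its exon bases with CD3EAP on the opposite strand, which rose (0.33 ± 0.08, edgeR adjusted p = 0.00767), and whether the counting used strand is not given in the sources used here. The damage sensors DDB1 (-0.06 ± 0.08) and DDB2 (-0.03 ± 0.11) and the endonuclease gene ERCC5 (-0.02 ± 0.09) lay near 0.

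**Figure D3:**
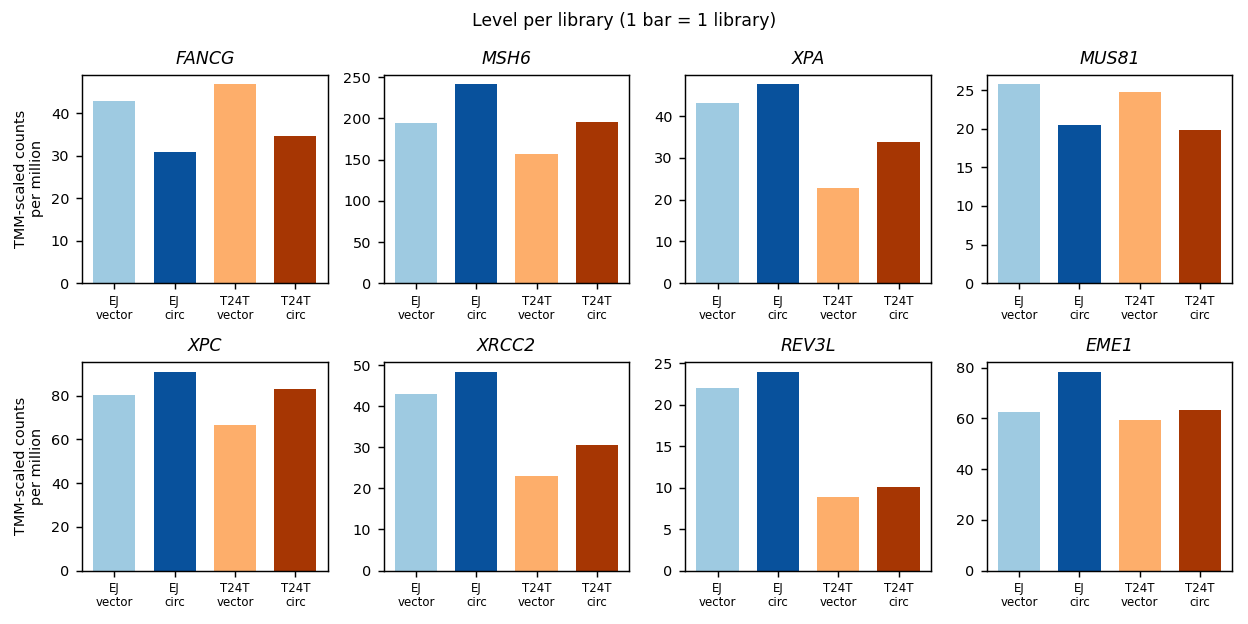
TMM-scaled CPM in each of the 4 libraries, 1 bar for each library, for FANCG, MSH6, XPA, MUS81, XPC, XRCC2, REV3L and EME1, each with an axis of its own starting at 0. FANCG and MUS81 were lower in both circ libraries, MSH6, XPC and EME1 were higher in both, and the T24T bars of XPA, XRCC2 and REV3L stand under their EJ bars.

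In the Fanconi group FANCG was the sole member of 10 that passed. Of all genes 12.7% passed, so 1 call of 10 lies near the background. The other core genes had log2 fold changes of 0.01 ± 0.09 (FANCA), 0.03 ± 0.14 (FANCC), 0.23 ± 0.12 (FANCE), -0.12 ± 0.21 (FANCF), -0.0023 ± 0.13 (FANCL, the ubiquitin ligase) and -0.08 ± 0.22 (FANCM). FANCE, which links the core to FANCD2, was nearly level in EJ, at 25.6 and 26.2 CPM, and went from 21.8 to 29.4 CPM in T24T. FANCD2 itself had 44.1 and 41.9 CPM in EJ vector and circ and 54.9 and 45.02 CPM in T24T vector and circ, a log2 fold change of -0.18 ± 0.10 (edgeR adjusted p = 0.226). Its fold in T24T was 0.820 (interval 0.745 to 0.903), while the EJ interval of 0.850 to 1.06 held 1. FANCI, the partner of FANCD2, had 0.05 ± 0.08, and the nuclease scaffold gene SLX4 had -0.14 ± 0.09.

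No homologous recombination gene passed in edgeR (0 of 9, against 12.7% of all genes). At an unadjusted edgeR p under 0.05 there were 3 of 9, against 25.8% of all genes. DESeq2 called 0 of 9. Counts in groups this small were not tested against these shares. MUS81 and EME1 encode the subunits of a nuclease that cuts branched DNA, and their values lay on opposite sides of 0. MUS81 had 25.7 CPM with vector and 20.4 CPM with circ in EJ cells, and 24.7 and 19.8 CPM in T24T cells. Both circ libraries lay under both vector libraries, with a log2 fold change of -0.33 ± 0.11 (edgeR adjusted p = 0.0527). It did pass, as a fall, with RLE size factors (adjusted p = 0.0310), with library size alone (0.0428) and without mitochondrial genes (0.0455). EME1 had 62.7 CPM with vector and 78.4 CPM with circ in EJ cells, and 59.5 and 63.4 CPM in T24T cells, with both circ libraries above both vector libraries and a log2 fold change of 0.21 ± 0.09 (edgeR adjusted p = 0.136). The RPKM ratio of MUS81 to EME1 went from 0.247 with vector to 0.157 with circ in EJ cells and from 0.250 to 0.188 in T24T cells, log2 differences of -0.65 and -0.42.

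Each of this pair shares exon bases with an abundant gene on the opposite strand that had the same sign. MUS81 shares 13.9% with CFL1 (-0.22 ± 0.08, edgeR adjusted p = 0.0605) and EME1 shares 16.4% with LRRC59, which rose (0.38 ± 0.08, edgeR adjusted p = 0.00195). The part of these neighbours in the MUS81 and EME1 values was not tested.

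XRCC2, which acts in strand exchange during recombination, had 43.1 and 48.4 CPM in EJ vector and circ and 23.1 and 30.7 CPM in T24T vector and circ. Circ was above vector within each line, with a log2 fold change of 0.28 ± 0.10 (edgeR adjusted p = 0.0685). The recombination genes RAD51C (0.20 ± 0.12) and XRCC3 (0.20 ± 0.10) had like values, that of RAD51C from EJ mostly, with 0.36 in EJ and 0.04 in T24T. XRCC3 shares 76.7% of its exon bases with KLC1 on the opposite strand, so its counts are uncertain. BRCA1, which promotes end resection, had 0.11 ± 0.10, from 0.26 in EJ and -0.03 in T24T. The recombination mediator gene BRCA2 had 0.19 ± 0.17, PALB2, which links BRCA1 to BRCA2, had -0.04 ± 0.15, and the helicase gene BRIP1 had -0.07 ± 0.13.

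No translesion gene passed in edgeR (0 of 5, against 12.7% of all genes). An unadjusted edgeR p under 0.05 was found for 2 of 5, against 25.8% of all genes, and DESeq2 called 0 of 5. REV1, which recruits the other translesion polymerases, had 28.2 and 24.2 CPM in EJ vector and circ and 27.6 and 23.3 CPM in T24T vector and circ, so both circ libraries were lower (-0.23 ± 0.11, edgeR adjusted p = 0.176). REV1 shares 11.0% of its exon bases with EIF5B on the opposite strand, which rose (0.37 ± 0.09, edgeR adjusted p = 0.00333). RAD18, the ligase that marks PCNA at stalled forks, had 20.04 and 25.9 CPM in EJ and 22.5 and 24.7 CPM in T24T, vector first, so both circ libraries were higher (0.25 ± 0.11, edgeR adjusted p = 0.157). POLH, encoding polymerase eta, had -0.15 ± 0.12, and of the subunits of polymerase zeta, the catalytic REV3L had 0.15 ± 0.13 and MAD2L2 -0.14 ± 0.10.

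The checkpoint kinase genes lay closer to 0, and edgeR called 0 of 4, against 12.7% of all genes. By an unadjusted edgeR p under 0.05 the count was 0 of 4, against 25.8% of all genes. DESeq2 called 0 of 4. The log2 fold change was 0.17 ± 0.12 for ATR, which responds to stalled forks, and -0.04 ± 0.10 for its target CHEK1. It was 0.04 ± 0.10 for ATM, which responds to double-strand breaks, and -0.13 ± 0.12 for its target CHEK2. ATM had opposite signs in the lines, -0.13 in EJ and 0.21 in T24T. Of the single-strand break genes (0 of 2 in edgeR, 0 at an unadjusted p under 0.05; DESeq2 0 of 2), PARP1 had -0.07 ± 0.08 and the scaffold gene XRCC1 0.06 ± 0.09.

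Genes of the same pathways outside the set were read from the same fit. Of 111 such genes, 10 rose and 6 fell in edgeR, 14.4% in all and near the 12.7% of all genes, with a median log2 fold change of 0.0097. DESeq2 called 1 of the 111. Among 20 other checkpoint genes 5 rose, led by the clamp gene RAD1 (0.43 ± 0.09, edgeR adjusted p = 0.000838), CLSPN, encoding the adaptor between ATR and CHEK1 (0.38 ± 0.08, 0.00237), and MDC1, a scaffold at breaks (0.31 ± 0.08, 0.0122), and CDC25B, a phosphatase driving mitotic entry, fell (-0.26 ± 0.09, 0.0423). Among 27 other recombination genes 4 fell, led by RAD54L, a motor protein of strand exchange (-0.53 ± 0.11, edgeR adjusted p = 0.00182), EME2, an alternative partner of MUS81 (-0.47 ± 0.13, 0.0153), and the BRCA1 partner gene BARD1 (-0.39 ± 0.13, 0.0437), and 2 rose, BRCC3 (0.44 ± 0.12, 0.0173) and RAD50 (0.29 ± 0.09, 0.0334).

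Among 13 other Fanconi pathway genes the crosslink nuclease gene DCLRE1A rose (0.52 ± 0.15, edgeR adjusted p = 0.0152) and none fell. Among 7 other single-strand break genes APTX (0.34 ± 0.09, edgeR adjusted p = 0.00727) and FEN1 (0.33 ± 0.09, 0.0103) rose. In edgeR 0 of 21 other excision genes passed (5 at an unadjusted p under 0.05), as did 0 of 10 other translesion genes (4), 0 of 5 other mismatch genes (0) and 0 of 8 end joining genes (0). Of all genes 12.7% passed in edgeR and 25.8% had an unadjusted edgeR p under 0.05. DESeq2 called 0 in each of the excision, translesion, mismatch and end joining lists (0 at an unadjusted p under 0.05), and 0 of the other checkpoint, recombination and Fanconi genes, which had 3, 1 and 0 at an unadjusted p under 0.05. It called 1 of the 7 other single-strand break genes, with 3 at an unadjusted p under 0.05.

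Several repair genes are made mainly in S phase, so cell cycle genes are given beside them. Of 18 S-phase genes 5 rose, among them CDC6 (0.46 ± 0.08, edgeR adjusted p = 0.000256), MCM3 (0.32 ± 0.08, 0.00587) and MCM6 (0.33 ± 0.09, 0.00798), and none fell, while of 12 mitotic genes 4 fell, among them FOXM1 (-0.38 ± 0.09, edgeR adjusted p = 0.00495), and none rose. Of all genes 7.13% rose and 5.56% fell. DESeq2 called 1 of the 18 S-phase genes (5 at an unadjusted p under 0.05) and 0 of the 12 mitotic genes (4). The part of the cell cycle in the MSH6, XPA and FANCG changes was not tested. Of 18 p53 targets, which report damage signalling, 2 rose, GADD45A (0.54 ± 0.11, edgeR adjusted p = 0.000730) and AEN (0.44 ± 0.11, 0.00727), and 2 fell, CCNG1 (-0.73 ± 0.10, 1.11e-05) and FDXR (-0.31 ± 0.11, 0.0457). DESeq2 called 1 of these 18, with 2 at an unadjusted p under 0.05.

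The lines were then set against each other in the same fit, with the transfection as the block. In T24T 14 of the 43 members were lower than in EJ and 2 were higher, 37.2% in all, against 41.4% of all genes (19.5% lower and 21.9% higher). The members' median log2 fold change of T24T over EJ was -0.19 and that of all genes 0.01, and 33 of 43 values were negative (76.7%; 48.9% of all genes). All 11 excision genes and all 9 recombination genes had negative values, of which 6 and 3 passed. Both T24T libraries lay under both EJ libraries for 22 members (51.2%; 29.1% of all genes) and above them for 6 (14%; 31.4% of all genes). Of the 111 other pathway genes 33 were lower in T24T and 15 higher, with a median of -0.13. The negative sign of the excision members did not extend to the 21 other excision genes. Of these 8 had negative values (38.1%), 3 were lower and 3 higher, and the median was 0.09. Of the 27 other recombination genes 20 had negative values (74.1%), 9 were lower and 2 higher, and the median was -0.15.

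REV3L differed most among the members. EJ cells had 22.0 CPM with vector and 23.97 CPM with circ, against 8.85 and 10.1 CPM in T24T cells. It was 2.43-fold lower in T24T (log2 fold change -1.28 ± 0.13, n = 2 transfections, edgeR adjusted p = 1.03e-09). MAD2L2, whose product joins REV3L in polymerase zeta, had a value above 0 in T24T against EJ (0.17 ± 0.10, edgeR adjusted p = 0.167), and the RPKM ratio of REV3L to MAD2L2 was 0.134 and 0.150 in EJ vector and circ and 0.045 and 0.060 in T24T vector and circ. XRCC2 was 1.71-fold lower in T24T (-0.78 ± 0.10, edgeR adjusted p = 2.35e-07) and XPA 1.62-fold lower (-0.70 ± 0.11, 2.90e-06). DESeq2 also called these 3 genes and MSH6 (-0.30 ± 0.08, edgeR adjusted p = 0.00349), and no other member (9.3% of the 43; 18.2% of all genes).

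The other excision genes lower in T24T in edgeR were ERCC8 (-0.50 ± 0.14, edgeR adjusted p = 0.00534), DDB2 (-0.33 ± 0.11, 0.0167), ERCC2 (-0.31 ± 0.09, 0.00547), ERCC5 (-0.26 ± 0.09, 0.0213) and ERCC1 (-0.21 ± 0.09, 0.0443). ERCC5 shares 41.8% of its exon bases with the read-through gene BIVM-ERCC5 and ERCC8 31.8% with the pseudogene GNL3LP1, each on the same strand, so their counts are uncertain. CD3EAP, which overlaps ERCC1, was lower as well (-0.55 ± 0.08, edgeR adjusted p = 2.65e-06). The Fanconi genes FANCI (-0.29 ± 0.08) and SLX4 (-0.25 ± 0.09), the recombination genes BRIP1 (-0.34 ± 0.13) and XRCC3 (-0.28 ± 0.10) and the kinase gene ATM (-0.26 ± 0.10) were lower too, XRCC3 by the same amount as the overlapping KLC1 (-0.28 ± 0.08).

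Higher in T24T were FANCF (0.66 ± 0.21, edgeR adjusted p = 0.0109), an adaptor of the core complex, and PARP1 (0.27 ± 0.08, 0.00754). The FANCF call rests on few counts, 60 and 48 in EJ cells and 93 and 95 in T24T cells, vector first. PARP1 had 430 and 412 CPM in EJ and 521 and 492 CPM in T24T, vector first, with no overlap between the lines. BRCA2 (-0.40 ± 0.17, edgeR adjusted p = 0.0545), PALB2 (-0.34 ± 0.15, 0.0603), XPC (-0.20 ± 0.09, 0.0666) and EME1 (-0.19 ± 0.09, 0.0888) did not pass. FANCD2 (0.21 ± 0.10, edgeR adjusted p = 0.0778) and FANCA (0.20 ± 0.09, 0.0858) had positive values and did not pass either.

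**Figure D4:**
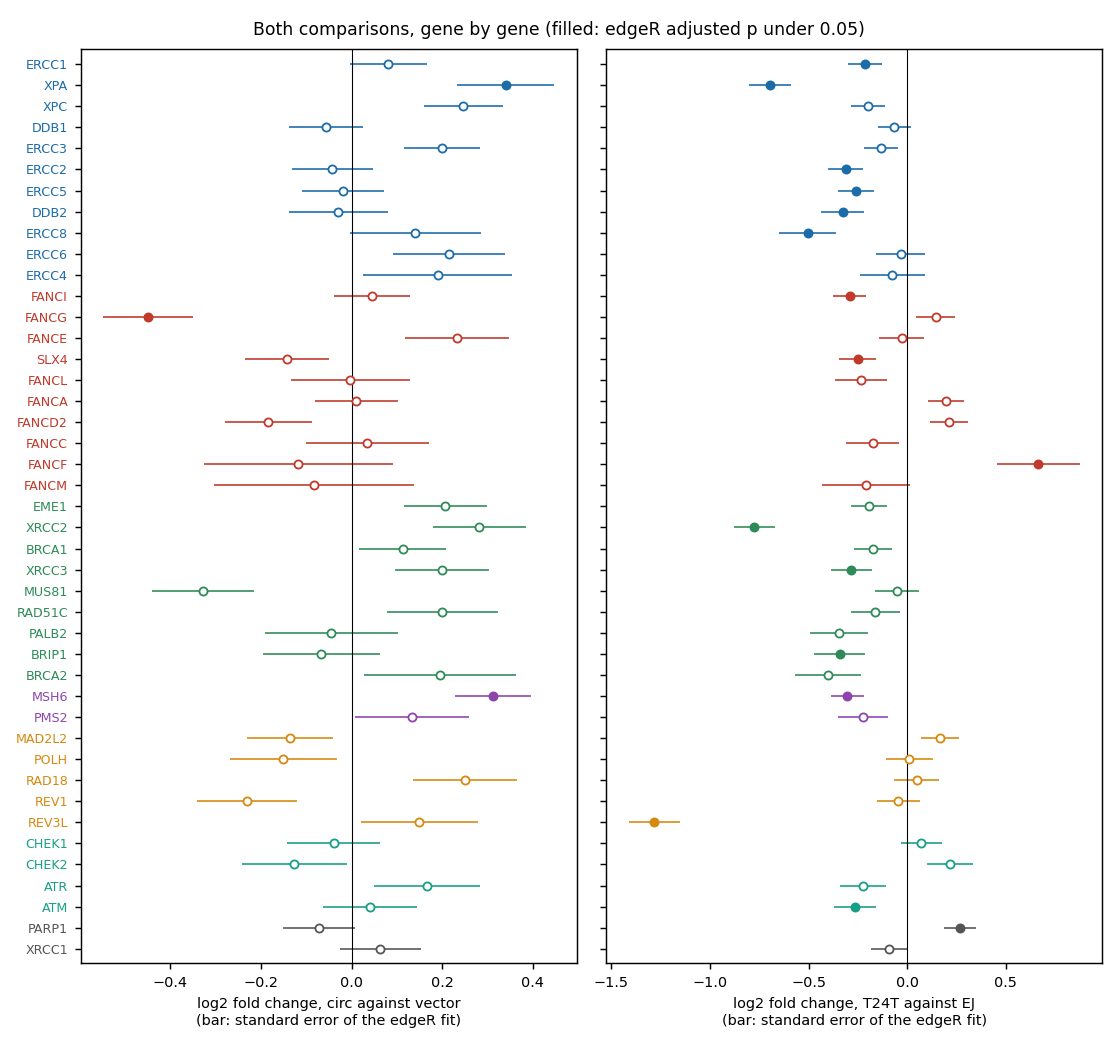
Log2 fold change of each of the 43 genes for circ against vector (left) and for T24T against EJ (right), with the standard error of the edgeR fit as the bar, filled where the edgeR adjusted p was under 0.05 and with a separate axis for each panel. On the left 3 genes are filled, FANCG, XPA and MSH6, and on the right 16, of which REV3L lies farthest left.

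XPA and MSH6 appear in both comparisons with opposite signs: each was higher in circ than in vector and lower in T24T than in EJ. In T24T circ MSH6 stood at 196 CPM, beside the 195 CPM of EJ vector, while XPA at 33.8 CPM stayed under the 43.1 CPM of EJ vector. FANCG differed in neither direction between the lines beyond the spread (0.15 ± 0.10, edgeR adjusted p = 0.250).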

How the data were processed

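Total RNA was sequenced from 4 libraries, 1 for each line and transfection. Per the submitters' processing notes, Trimmomatic, HISAT2 and the build hg38 were used, and the counting tool, annotation and use of strand are not given in the sources used here. The authors deposited counts per gene and RPKM values; 100% of the deposited RPKM values equal count divided by gene length and library total, within a relative tolerance of 1e-06. Total counts ran from 14703455 to 18057768, with 1 library per group. The table headers write T24 for the line that the sample titles call T24T.

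The 17689 genes kept had a summed count of at least 20 and reached 10 in some library. Counts were scaled by TMM and fitted in edgeR 4.0.16 (R 4.3.3) with terms for cell line and transfection, which leaves 1 residual degree of freedom (prior 30.5) and the BCV, the biological coefficient of variation, was 0.0704 in common; p-values were adjusted by Benjamini-Hochberg over all genes tested at 0.05. Log2 ratios within a line used a prior count of 2 and have no test. Intervals of folds are exact 95% binomial and cover counting error only, since the labels mention no molecular identifiers. The fit was tested on simulated counts. Alternatives were library size alone, RLE size factors, removal of mitochondrial genes, no filter, a filter of 50 counts per line, DESeq2 1.42.0, limma-voom and limma 3.58.1 on log2 RPKM, no block, and prior counts of 0.5 and 10.

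All 43 members were named, and of the other lists up to 3 passing genes per list and direction, by smallest adjusted p; some genes that overlap a member's exons were named after their values were seen. The members and lists were chosen with earlier results of these data known. Exon overlaps come from the coordinates in the deposited table, and start-site windows from RefSeq (GRCh38.p14), which had entries for 42 of the 43 members; where a gene has several, the first is printed. A gene that passed in one of the other lists is not reported here.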

Additional observations from a re-analysis of the deposited data

How the results depend on the processing

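For circ against vector, FANCG, MSH6 and XPA were each called in 7 of 11 fits, and limma-voom, the scalings and the filters kept these 3 calls. MUS81 was called as a fall with RLE size factors (-0.34, adjusted p = 0.0310), with library size alone (-0.34, 0.0428) and without mitochondrial genes (-0.34, 0.0455). Of all genes 2246 were called, against 334 in DESeq2 (1463 at an unadjusted p under 0.05), 0 in edgeR without the cell-line block (397 unadjusted), 0 in limma on log2(RPKM + 1) (3588) and 0 on log2(RPKM + 0.1) (3713). The 3 called members became 0 in each of these, with 2, 1, 5 and 5 at an unadjusted p under 0.05.

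For T24T against EJ, 7315 genes became 3217 in DESeq2 and 3192 without the block, and 16 members became 4 and 3. Limma called 5077 of all 17689 genes on log2(RPKM + 1) and 5497 on log2(RPKM + 0.1), and 7 members on either scale. The other settings gave between 13 and 22 members. Over all genes they gave between 5868 calls, of 13701 genes in the stricter filter, and 7619, of 17689 genes with RLE size factors. REV3L, XRCC2 and XPA were called in all 11 fits. Signs changed only in members near 0. FANCA in circ against vector went to -0.0052 with library size alone, -0.0035 without mitochondrial genes, -0.0057 with no filter, and -0.0030 and -0.0029 on log2(RPKM + 1) and log2(RPKM + 0.1). Between the lines POLH went to -0.0015 with RLE, -0.053 with library size alone, -0.0027 without mitochondrial genes, -0.011 with no filter, and -0.044 and -0.0501 on the RPKM scales, and RAD18 to -0.017, -0.012 and -0.0131 with library size alone and on the RPKM scales. These fits drop none of the 4 libraries. The cause of the lost calls was not tested.

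With 1 library per group no replicate could be left out. Circ and vector were paired within each line by the cell-line block of the fit, and replicate numbers offered no further pairing. At these depths members of low count, such as FANCF and FANCM, carry the widest errors (SE 0.21 and 0.22).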
